A study of Mus musculus with 8 samples.

Results

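The Krueppel-like factors (KLFs) are zinc finger transcription factors, and 10 genes of the family were followed here: *Klf2*, *Klf3*, *Klf4*, *Klf6*, *Klf7*, *Klf9*, *Klf10*, *Klf11*, *Klf12* and *Klf13*. Members were chosen by gene symbol, and all 10 were found among the 24303 genes of the deposited RNA-Seq table. The cells were P14 CD8 T cells, which carry a transgenic TCR for the GP33 peptide of LCMV on a C57BL/6 background, taken from spleen and cultured in vitro. RNA-Seq compared cells at the effector stage, cells rested after acute stimulation and cells kept under chronic stimulation, with 2 libraries in each of 4 conditions. Naive cells of all conditions were first activated on plates coated with anti-CD3 and anti-CD28 for 2 days and were given IL-2 and, from day 2, IL-15. Viable CD8 T cells were purified by FACS before RNA isolation.

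Effector cells were collected on day 7, and their labels do not say how they were treated after activation. Acute-2d cells received no GP33 after activation and were kept without peptide until day 19. Acute-7d cells were stimulated with GP33 repeatedly until day 7 and then rested without peptide until day 19. T_Dysf cells were stimulated with GP33 repeatedly until day 19 and were also given TGF-β1 from day 7, so that the parts played by peptide, TGF-β1 and the lack of rest cannot be told apart. Both Effector libraries and Acute-7d replicate 1 carry the prefix RESUB in their library names, whose meaning the labels do not give. The part of the prefix in Effector values can therefore be estimated only from the difference between the pair of Acute-7d libraries, 1 with and 1 without it. The series calls the 2 libraries of a condition biological replicates, but nothing says that they came from separate mice or cultures. The p-values thus measure only the spread between these libraries, which may be technical.

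KLF proteins bind CACCC and GC-rich sequences through zinc fingers at the C-terminus, while their N-terminal parts recruit coactivators or corepressors. In T cells, KLF2 is known for keeping naive and memory cells quiescent and in circulation, in part through the sphingosine-1-phosphate receptor S1PR1, and TCR signals lower its expression. KLF10 and KLF11 are early response genes of TGF-β, and KLF4 restrains the proliferation of CD8 T cells.

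The labels were checked against marker genes. All 6 CD8 T cell markers were above 50 normalized counts, the deposited unit (estimated reads divided by a size factor for each library). Their sum was 57944 and 56498.5 in Effector, 71312.5 and 68271 in Acute-2d, 61755.0 and 63839.9 in Acute-7d, and 128267 and 120592 in T_Dysf libraries. *Cd8a* was the most abundant by the mean over all libraries. The 3 CD4 T cell markers summed to at most 52.8 in any library, and 4 erythroid markers to at most 47.4. The 4 B cell markers summed to 49.1 to 160.8, led by *Cd79b*, and the 4 myeloid markers to 296.7 to 709, led by *Lyz2*. The 3 NK cell markers summed to 1073 to 4545, led by *Eomes*, which CD8 T cells also express. Of 3 endothelial markers only *Pecam1* passed 50, and the list summed to 1116 to 2059.6, while *Cdh5* stayed at or under 32.6.

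The epithelial list moved with T_Dysf. Its 3 measured genes summed to 159.9 and 62.2 in Effector, 867 and 1231 in Acute-2d, 1967 and 1199 in Acute-7d, and 12469 and 13359.9 in T_Dysf. In T_Dysf nearly all of this was *Cdh1*, the E-cadherin gene, at 12261 and 13187. The defining markers were low but also highest there, with *Epcam* at 101.8 and 87.2 and *Krt18* at 106.2 and 85.4 in T_Dysf against at most 48.6 and 32.0 in the other 6 libraries. The part of these genes, and of the higher CD8 T cell markers, in the KLF results was not tested. The libraries held between 19382117 and 24856086 estimated reads on genes, so that 3 reads were worth 2.59 to 3.35 normalized counts.

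Summed over the 10 members, KLF expression was lower in Effector and T_Dysf than in rested cells. Divided by transcript length, the summed level of the 10 members was 3537 and 3064 normalized counts per kb in the Effector libraries. It was 10080.0 and 8161 per kb in Acute-2d, 9296 and 7497 per kb in Acute-7d, and 3469 and 3195 per kb in T_Dysf. Each rested library stood above each Effector and T_Dysf library, and Effector and T_Dysf overlapped. This sum was not tested.

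The leading members differed between conditions. In rested cells, *Klf6* had the highest level per kb, at 3929 in Acute-2d and 3738 in Acute-7d (means of 2 libraries), followed by *Klf13* at 2039 and 2213. In Acute-2d, *Klf10* at 1187 and *Klf2* at 1166 per kb came next, and their libraries overlapped. In Acute-7d, *Klf10* at 934.5 and *Klf2* at 933.9 per kb were also within each other's spread. In Effector, *Klf13* led at 1197 per kb, before *Klf6* at 852.0 and *Klf2* at 632. In T_Dysf, *Klf13* at 1254 and *Klf6* at 1241 per kb overlapped, *Klf10* followed at 453, and *Klf2* was at 63.9. *Klf12* was the lowest in every condition, at 1.22 to 2.52 per kb. *Klf2* made up 18.8% and 19.5% of the summed level per kb in the Effector libraries, 10.3% and 15.8% in Acute-2d, 10.9% and 11.4% in Acute-7d, and 1.62% and 2.25% in T_Dysf.

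**Figure D1:**
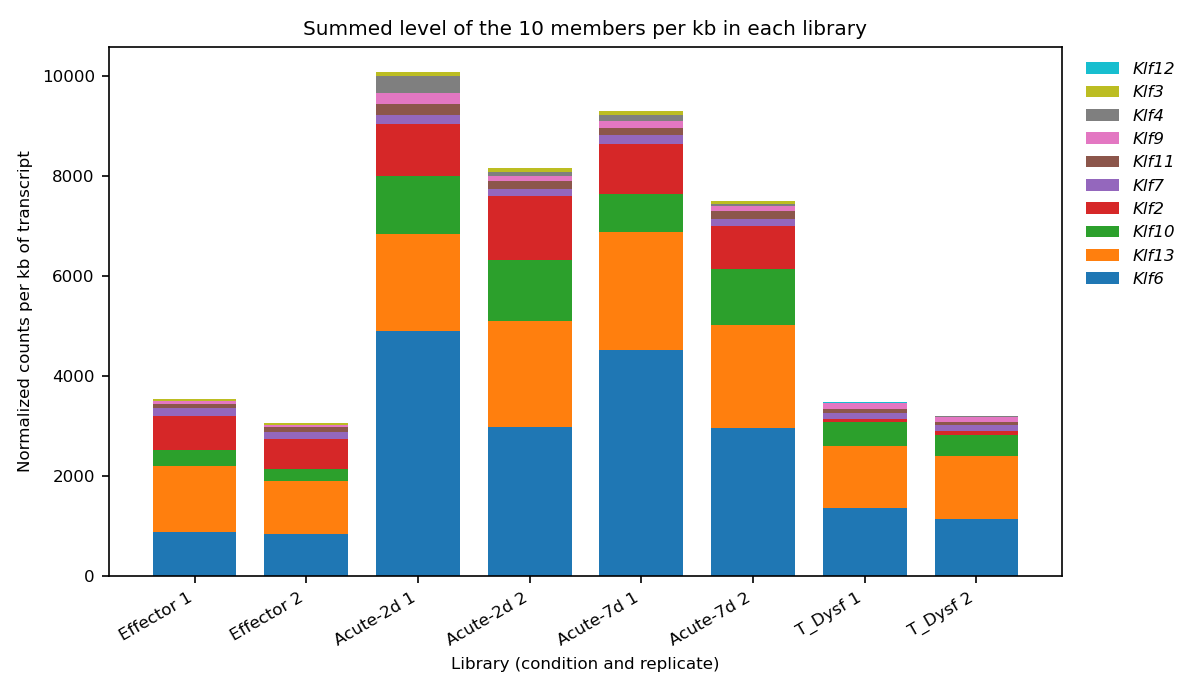
Normalized counts per kb of transcript, stacked over the 10 members, for each library (horizontal axis: condition and replicate). The 4 libraries of rested cells reach 7497 to 10080.0, the Effector and T_Dysf libraries 3064 to 3537, and the *Klf2* segment is thin in T_Dysf.

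Most members differed among the conditions in the fit to all libraries, and fewer passed when any library was left out. DEGs had to differ 2-fold or more with adjusted p under 0.05 in limma, fitted to log2(normalized count + 1) of all genes and libraries. In the F test over the 4 conditions, which needs only the adjusted p, 7 of 10 members passed against 20.2% of all genes. The exceptions were *Klf7*, *Klf9* and *Klf12*. Among the 12028 genes with a mean of at least 50 normalized counts, which hold 9 of the members, 34.4% passed. With a term for the RESUB prefix 2 members passed, while the number of all genes that passed fell from 4904 to 1696.

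Between T_Dysf and Acute-7d, 4 of 10 members were DEGs, all lower in T_Dysf (*Klf2*, *Klf3*, *Klf6* and *Klf11*), against 3.03% of all genes called lower. Between T_Dysf and Acute-2d, 6 were DEGs, all lower (*Klf2*, *Klf3*, *Klf4*, *Klf6*, *Klf10* and *Klf11*), against 4.21%. Between T_Dysf and Effector, 2 were lower (*Klf2* and *Klf3*), against 4.75%. Effector cells had 3 members lower than Acute-7d (*Klf4*, *Klf6* and *Klf10*), against 3.88% of all genes, and the same 3 lower than Acute-2d, against 4.48%. No member was called higher in Effector or T_Dysf than in another condition. The median log2 fold change of the members was -1.14 for T_Dysf against Acute-7d, -1.46 against Acute-2d and 0.28 against Effector. It was -0.92 for Effector against Acute-7d and -0.97 against Acute-2d, and the median of all genes was 0.0 in each comparison. Comparisons that share a condition share its libraries.

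**Figure D2:**
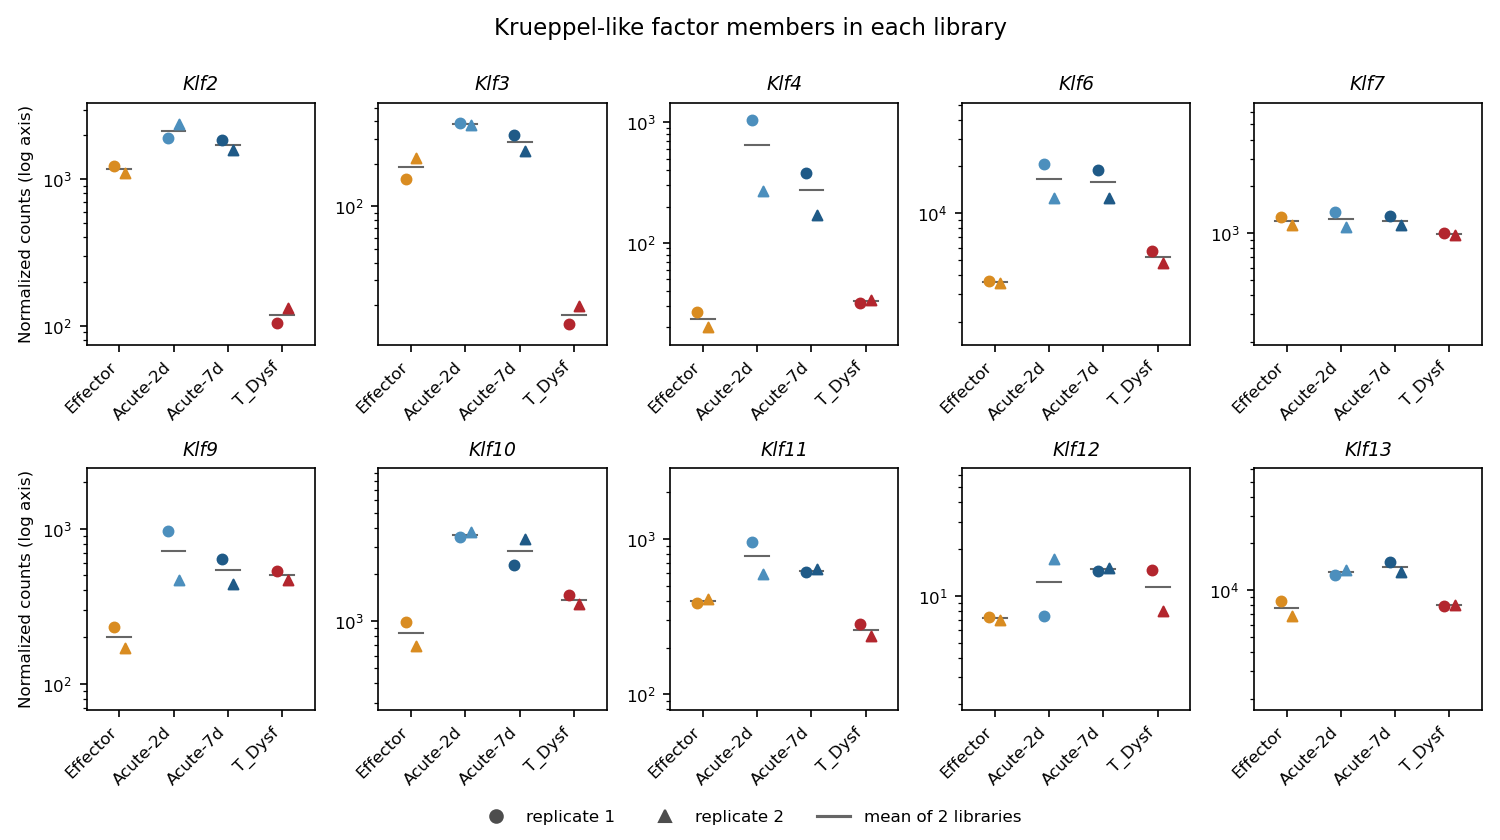
Normalized counts (log axis) of each member in each library, with replicate 1 as a circle, replicate 2 as a triangle and the mean of 2 libraries as a line. *Klf2* and *Klf3* are low in T_Dysf alone, at 104 and 133 and at 14.7 and 19.6, while *Klf4*, *Klf6* and *Klf10* are low in both Effector and T_Dysf.

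**Figure D3:**
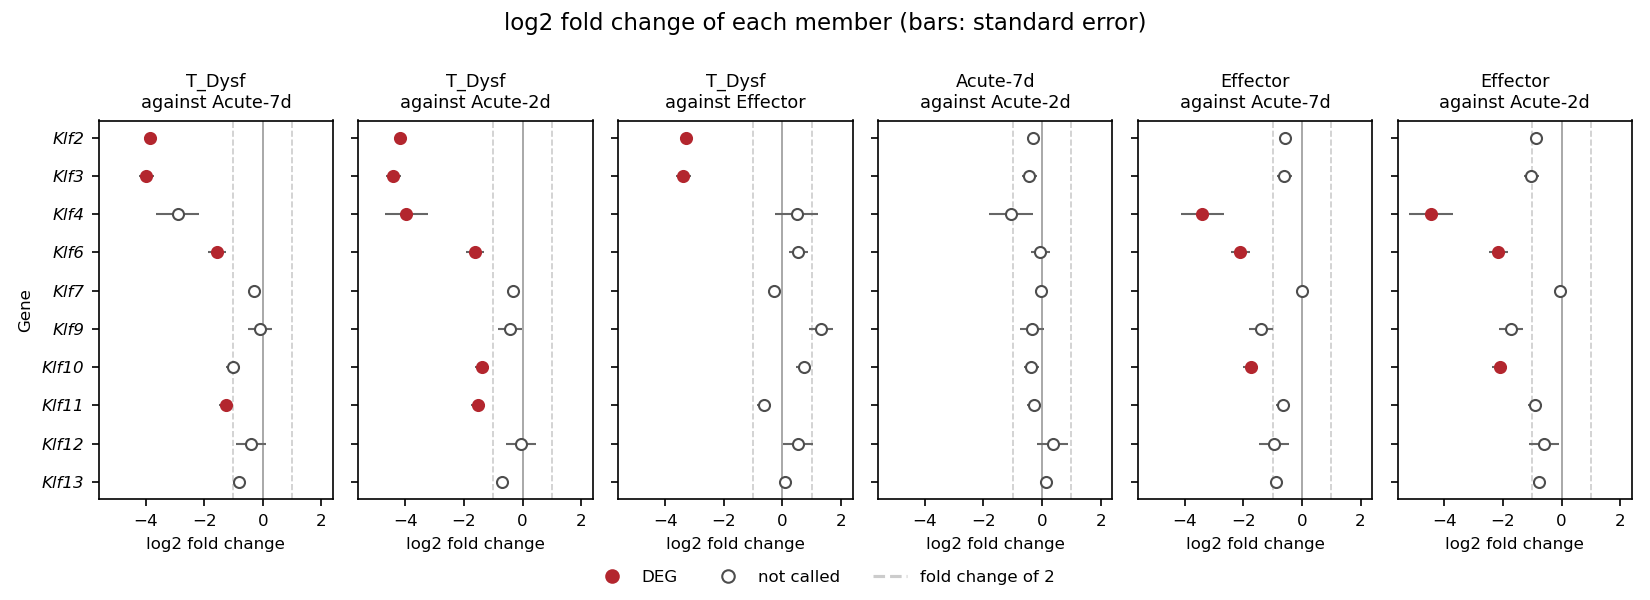
log2 fold change (horizontal axis) of each member in the 6 comparisons, with the standard error as a bar, DEGs filled and a fold change of 2 as dashed lines. *Klf2* and *Klf3* lie between -3.30 and -4.41 in the 3 comparisons of T_Dysf, and no member is filled between Acute-7d and Acute-2d.

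*Klf2*, the quiescence and trafficking factor, was at 1231 and 1104.5 normalized counts in Effector and at 1922 and 2384 in Acute-2d. It was at 1868 and 1582 in Acute-7d and at 104 and 133 in T_Dysf. Both T_Dysf libraries were far below the other 6, and no condition overlapped another. The study also named *Klf2*, from these libraries, among migration genes that stayed higher in acutely stimulated cells. The mean in T_Dysf was 118 ± 20.5 (SD, n = 2) against 1725 ± 202 (SD, n = 2) in Acute-7d. The level was 14.6-fold lower than in Acute-7d (log2 fold change -3.86, SE 0.18, adjusted p = 0.00185), 18.1-fold lower than in Acute-2d (-4.18, SE 0.18, adjusted p = 0.00124) and 9.87-fold lower than in Effector (-3.30, SE 0.18, adjusted p = 0.00225). In these bulk libraries, fewer cells with the transcript and less transcript per cell cannot be told apart. *Klf2* was called in these 3 comparisons under every alternative run, although leaving out a library leaves 1 in its condition, which is then assumed to vary like the others. Among libraries with no RESUB prefix, which leave 1 Acute-7d library, the T_Dysf mean differed from it by -3.74 on the log2 scale. With a term for the prefix the log2 fold change was -3.06 against Effector (adjusted p = 0.0446, and 8.6e-05 to 0.0446 over all alternatives). *Klf2* in Effector was also lower than in Acute-2d by an adjusted p of 0.0383, at a 1.84-fold difference that did not reach a fold change of 2. That adjusted p ran from 0.00906 to 0.195 over all alternatives and was above 0.05 without any 1 of the 8 libraries, and with equal 75th percentiles the gene was called (-1.02, adjusted p = 0.0296).

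The promoters of *Klf2* and *Klf3* are shown because these genes moved together. The *Klf2* window runs from 250 bases before to 50 after the start of the gene, on the + strand of chr8:72318812-72319111 (GRCm38.p6), ahead of a protein-coding gene of 3 exons. Capitals mark the KLF motif CACCC on either strand (read as GGGTG on the other) and a match to the MEF2 consensus, which was searched after the sequence had been seen.
Klf2: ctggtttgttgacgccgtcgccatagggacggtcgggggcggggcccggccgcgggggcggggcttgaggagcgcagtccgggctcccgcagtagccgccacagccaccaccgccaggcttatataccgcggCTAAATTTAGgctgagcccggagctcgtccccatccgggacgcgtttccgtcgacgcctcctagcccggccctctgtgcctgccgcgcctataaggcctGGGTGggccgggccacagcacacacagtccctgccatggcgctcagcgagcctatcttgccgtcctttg
The KLF motif occurs once, at position -19 from the start, and 57.5% of 32851 promoters of this length hold it on either strand. The MEF2 consensus begins at position -118 and is found in 0.557% of these promoters. A match is a description of the letters and does not show binding.

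*Klf3*, a repressor that recruits CtBP, was also lowest in T_Dysf. It was at 156 and 221 normalized counts in Effector, 387 and 376 in Acute-2d, 319 and 248 in Acute-7d, and 14.7 and 19.6 in T_Dysf. The T_Dysf libraries again stood apart from all others, resting on 17 and 22 estimated reads. The mean in T_Dysf was 17.1 ± 3.46 (SD, n = 2) against 283 ± 49.96 (SD, n = 2) in Acute-7d. *Klf3* was 15.7-fold lower than in Acute-7d (log2 fold change -3.97, SE 0.25, adjusted p = 0.00392), 21.3-fold lower than in Acute-2d (-4.41, SE 0.25, adjusted p = 0.00228) and 10.4-fold lower than in Effector (-3.38, SE 0.25, adjusted p = 0.00429). The call against Effector was lost with a term for RESUB (-3.02, adjusted p = 0.0772) and with the 2 conditions fitted alone (adjusted p = 0.0610), over a range of 0.000382 to 0.0772 in all alternatives. Among libraries with no prefix, the T_Dysf mean of *Klf3* differed by -3.79 on the log2 scale from the 1 Acute-7d library left. In Effector against Acute-2d, *Klf3* was at -1.03 (SE 0.25, adjusted p = 0.0544, with 0.0246 to 0.215 over all alternatives) and was called under 5 of 18 alternatives. These include the unadjusted p, a looser threshold on the same fit.

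The annotation places the noncoding gene *Gm20033* on the opposite strand over exons of *Klf3*. *Gm20033* was at 6.53 and 6.91 normalized counts in Effector, 76.7 and 49.6 in Acute-2d, 64.0 and 9.41 in Acute-7d, and was listed at 0 in both T_Dysf libraries. Whether reads were counted by strand is not given in the sources used here, so reads of this pair cannot be told apart. The promoter window of *Klf3* is on the + strand of chr5:64803271-64803570 (GRCm38.p6), ahead of a protein-coding gene of 6 exons, with the KLF motif in capitals.
Klf3: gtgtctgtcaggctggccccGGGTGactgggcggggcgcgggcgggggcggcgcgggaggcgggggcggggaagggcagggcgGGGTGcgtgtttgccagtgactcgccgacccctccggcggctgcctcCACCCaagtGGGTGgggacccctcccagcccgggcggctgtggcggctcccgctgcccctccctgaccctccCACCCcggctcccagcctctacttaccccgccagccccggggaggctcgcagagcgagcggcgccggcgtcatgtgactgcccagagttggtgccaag
It holds the motif 5 times, as CACCC in 2 places and GGGTG in 3, and 1.02% of all promoters hold 5 or more. Of the 9 members with a promoter in the RefSeq table, *Klf9* and *Klf13* had 1 motif each, and *Klf4*, *Klf6* and *Klf11* had none in this window. The windows of *Klf7* (3 motifs) and *Klf12* (1 motif) lie at another start, inside the gene. *Klf10* was the other member.

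Across the 8 libraries, *Klf2* and *Klf3* had the most similar centred log2 profiles of any pair of members, with a root mean square difference of 0.21. Outside the family, the genes most like *Klf2* among 12017 genes were *Tlr12* (0.28), *Lef1* (0.31) and *Tnfrsf22* (0.31). Those most like *Klf3* were *Tlr12* (0.19), *Bach2* (0.22) and *Smad3* (0.23). In T_Dysf these genes had means of 9.67 (*Tlr12*), 167 (*Lef1*), 24.1 (*Tnfrsf22*), 72.4 (*Bach2*) and 82.1 (*Smad3*) normalized counts, each lower than in the other 3 conditions. This is a measure of likeness over these libraries alone.

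Some genes of T cell migration that are linked to KLF2 were also lower in T_Dysf. Of the 6 measured genes of this list, 4 were called lower in T_Dysf than in each of the other 3 conditions (against 3.03%, 4.21% and 4.75% of all genes for Acute-7d, Acute-2d and Effector) and none was called higher, with a median log2 fold change of -2.42 against Acute-7d, where all genes had 0.0. The study also named genes of this list from these libraries, so its direction is not independent evidence. The list does not give the direction in which KLF2 acts on each gene. Whether the lower levels follow from lower *Klf2* was not tested. *S1pr1*, the egress receptor, was at 2035 and 1480.0 normalized counts in Effector, 3070.0 and 3918 in Acute-2d, 3576 and 3391 in Acute-7d, and 68.2 and 89.0 in T_Dysf. Its log2 fold change in T_Dysf was -5.46 against Acute-7d (SE 0.22, adjusted p = 0.00133). The lymph node homing receptor *Ccr7* was at 38.9 and 66.7 in T_Dysf and at 461 to 5304 elsewhere, with -5.08 against Acute-7d (SE 0.76, adjusted p = 0.0254). *Cxcr4* and *Cxcr3*, chemokine receptors, changed by -3.07 (SE 0.32, adjusted p = 0.0114) and -1.77 (SE 0.17, adjusted p = 0.00890). The other two measured genes, *S1pr4* (-1.21, adjusted p = 0.115) and *Itgb7* (0.06, adjusted p = 0.849), were not called.

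*Klf2* in T cells is induced by FOXO factors, and in endothelium through MEF2. Of 8 such upstream genes, 1 was called higher in T_Dysf than in Acute-7d (against 2.54% of all genes called higher), 1 than in Acute-2d (against 3.14%) and 2 than in Effector (against 4.47%), while none was called lower. *Mef2a* was at 12606 and 13833 normalized counts in T_Dysf and at 2705 to 3801 in the other 6 libraries, a log2 fold change of 1.83 against Acute-7d (SE 0.09, adjusted p = 0.00220). *Foxo1* was at 2299 and 2344 in T_Dysf, 3770.0 and 3918 in Acute-7d, and 1776 and 1692 in Effector. Its adjusted p was under 0.05 for T_Dysf against Acute-7d (0.00479) at a log2 fold change of -0.73, short of a fold change of 2. *Mef2d* was likewise at -0.64 (adjusted p = 0.0351). *Foxo3* was -0.03 in that comparison (adjusted p = 0.998). In Effector, *Foxo1* was lower than in Acute-7d by a log2 fold change of -1.15 (adjusted p = 0.00270) and *Foxo3* by -1.35 (adjusted p = 0.0152). The part of these genes in the level of *Klf2* was not tested.

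**Figure D4:**
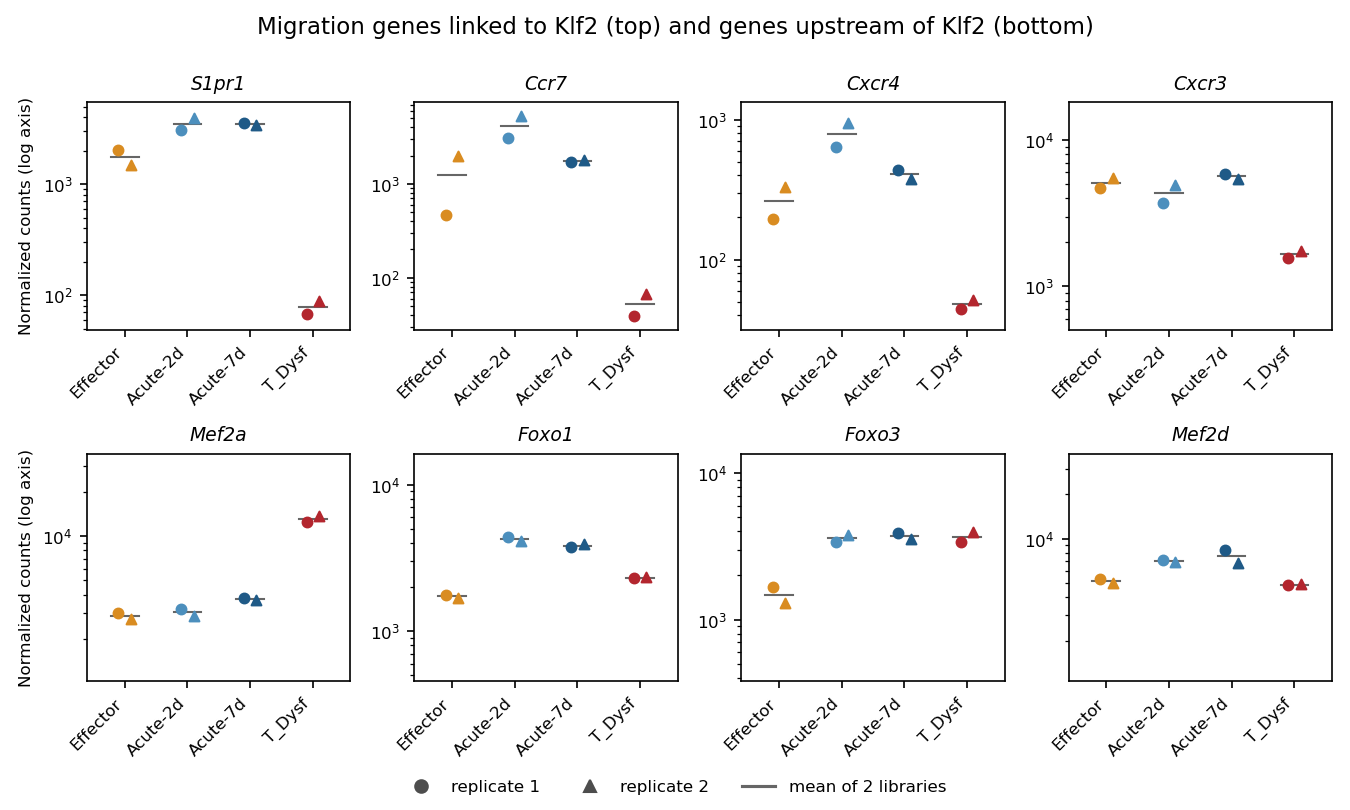
Normalized counts (log axis) in each library of 4 migration genes linked to *Klf2* (top) and 4 genes upstream of it (bottom), with replicate 1 as a circle, replicate 2 as a triangle and the mean as a line. The migration genes are lowest in T_Dysf, *Mef2a* is highest there at 12606 and 13833, and *Foxo1* and *Foxo3* are lowest in Effector.

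*Klf6*, the most abundant member in rested cells and an early response factor, was lower in Effector and T_Dysf. It was at 3652 and 3547 normalized counts in Effector and 5699 and 4789 in T_Dysf. It was at 20662.5 and 12540.3 in Acute-2d and 19068 and 12522 in Acute-7d. Rested libraries lay above all others without overlap, and replicate 1 was the higher library in every condition. *Klf6* in T_Dysf was 2.96-fold lower than in Acute-7d (log2 fold change -1.56, SE 0.32, adjusted p = 0.0495) and 3.08-fold lower than in Acute-2d (-1.62, SE 0.32, adjusted p = 0.0387). In Effector it was 4.29-fold lower than in Acute-7d (-2.10, SE 0.32, adjusted p = 0.0224) and 4.47-fold lower than in Acute-2d (-2.16, SE 0.32, adjusted p = 0.0198). Between T_Dysf and Effector the log2 fold change was 0.54 (SE 0.32, adjusted p = 0.324). The call against Acute-7d in T_Dysf was lost without any 1 of the 8 libraries (adjusted p = 0.0533 to 0.185, log2 fold change -1.87 to -1.26). Against the 1 Acute-7d library with no RESUB prefix the difference was -1.26. This T_Dysf call was also lost with a pseudocount of 0.1 (adjusted p = 0.0511) and with equal 75th percentiles (adjusted p = 0.0521). With a term for RESUB the T_Dysf calls against Acute-7d and Acute-2d were both lost (-1.26 and -1.62, adjusted p = 0.185 and 0.0543). With the 2 conditions fitted alone both were lost too (adjusted p = 0.0952 and 0.102). The call against Acute-2d was lost without any library but Acute-2d replicate 2 (adjusted p = 0.0541 to 0.135). In Effector the call against Acute-7d was lost without any library but those of Acute-2d (adjusted p = 0.0511 to 0.0952), and that against Acute-2d without either Effector or T_Dysf library or Acute-2d replicate 1 (adjusted p = 0.0518 to 0.0762). With a term for RESUB the log2 fold changes of Effector were -2.40 (adjusted p = 0.0516) and -2.77 (adjusted p = 0.109), so the calls were lost while the differences were larger.

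*Klf4* had a wider spread. It was at 26.5 and 20.1 normalized counts in Effector, 1037 and 269.9 in Acute-2d, 377 and 169.6 in Acute-7d, and 31.9 and 33.8 in T_Dysf. Rested libraries did not overlap with Effector or T_Dysf, but Acute-2d replicate 1 was 3.84 times replicate 2. The low values rest on 29 and 20 estimated reads in Effector and 37 and 38 in T_Dysf. *Klf4* in T_Dysf was 15.7-fold lower than in Acute-2d (log2 fold change -3.97, SE 0.74, adjusted p = 0.0345), and -2.91 against Acute-7d missed the threshold (SE 0.74, adjusted p = 0.0841), which it passed among genes with a mean of 50 or more (adjusted p = 0.0182). In Effector it was 10.6-fold lower than in Acute-7d (-3.40, SE 0.74, adjusted p = 0.0451) and 22-fold lower than in Acute-2d (-4.46, SE 0.74, adjusted p = 0.0248). Without Acute-2d replicate 1 the latter log2 fold change was -3.49, and without replicate 2 it was -5.43. The T_Dysf call was lost without any library but Acute-2d replicate 2 (adjusted p = 0.0594 to 0.152, and log2 fold change -3.0 without Acute-2d replicate 1). The Effector call against Acute-7d was lost without any library but those of Acute-2d (adjusted p = 0.0932 to 0.183). That against Acute-2d was lost without either Effector or T_Dysf library or Acute-2d replicate 1 (adjusted p = 0.0605 to 0.0986). With a term for RESUB the log2 fold change of Effector was -3.97 against Acute-7d (adjusted p = 0.0928) and -5.61 against Acute-2d (adjusted p = 0.147). The T_Dysf call was also lost with that term (-3.97, adjusted p = 0.0595). With the 2 conditions fitted alone the T_Dysf call (adjusted p = 0.107) and both Effector calls (adjusted p = 0.119 and 0.127) were lost. The Effector call against Acute-7d was also lost with a pseudocount of 10 (-2.99, adjusted p = 0.0537).

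*Klf10* and *Klf11*, both known as early targets of TGF-β, were not called higher in the cells given TGF-β1 than in any other condition. *Klf10* was at 991.5 and 692 normalized counts in Effector, 3496.5 and 3729.9 in Acute-2d, 2308 and 3381 in Acute-7d, and 1469.8 and 1286 in T_Dysf. The order was Effector, T_Dysf, Acute-7d and Acute-2d, with no overlap. *Klf10* in T_Dysf was 2.63-fold lower than in Acute-2d (log2 fold change -1.39, SE 0.25, adjusted p = 0.0322), and -1.02 against Acute-7d was not called (SE 0.25, adjusted p = 0.0791, and 0.141 with the 2 conditions fitted alone). Of 19 alternatives, 3 called the latter: a mean or maximum of at least 50 (adjusted p = 0.0182 and 0.0181) and the unadjusted p, a looser threshold on the same fit. Against Effector, whose libraries were both lower, the log2 fold change of T_Dysf was 0.73 (SE 0.25, adjusted p = 0.126, with 0.0396 to 0.860 over all alternatives). In Effector it was 3.37-fold lower than in Acute-7d (-1.75, SE 0.25, adjusted p = 0.0212) and 4.36-fold lower than in Acute-2d (-2.12, SE 0.25, adjusted p = 0.0140). The T_Dysf call was lost without either library of Acute-2d or of T_Dysf (adjusted p = 0.114 to 0.124) and with a replicate block (adjusted p = 0.0714). The Effector call against Acute-7d was lost without Effector replicate 2 or either library of Acute-7d or T_Dysf (adjusted p = 0.0562 to 0.0643), and that against Acute-2d without either Acute-2d library (adjusted p = 0.0574 to 0.0670). With a term for RESUB the log2 fold changes of Effector were -1.48 (adjusted p = 0.0641) and -1.57 (adjusted p = 0.148).

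*Klf11* was at 386 and 411 normalized counts in Effector, 950.0 and 595 in Acute-2d, 609 and 637 in Acute-7d, and 283 and 237 in T_Dysf. It was lowest in T_Dysf, with no overlap, while the Acute-7d libraries lay between those of Acute-2d. T_Dysf against Effector was at a log2 fold change of -0.62 and was not called (SE 0.24, adjusted p = 0.154). Effector was at -0.64 against Acute-7d (SE 0.24, adjusted p = 0.148) and -0.91 against Acute-2d (SE 0.24, adjusted p = 0.0653), also not called. *Klf11* in T_Dysf was 2.4-fold lower than in Acute-7d (log2 fold change -1.26, SE 0.24, adjusted p = 0.0422) and 2.90-fold lower than in Acute-2d (-1.53, SE 0.24, adjusted p = 0.0220). The first call was lost without either library of Effector, Acute-7d or T_Dysf (adjusted p = 0.0703 to 0.165) and with a replicate block (adjusted p = 0.0658), and the difference from the 1 Acute-7d library with no RESUB prefix was -1.30. The second was lost without either library of Acute-7d or T_Dysf and with the 2 conditions fitted alone (adjusted p = 0.102 in the latter). With a term for RESUB both calls were lost, at log2 fold changes of -1.30 and -1.53 (adjusted p = 0.165 and 0.0544). Of 6 other early targets of TGF-β, 3 were called higher in T_Dysf than in each other condition, a list from which the study also named genes in these libraries. All genes called higher were 2.54%, 3.14% and 4.47% against Acute-7d, Acute-2d and Effector. *Pmepa1* rose from 74.8 and 90.9 in Acute-7d to 1693 and 1950.0 in T_Dysf (log2 fold change 4.45, SE 0.54, adjusted p = 0.0159), *Skil* by 1.66 (adjusted p = 0.0453) and *Ski* by 1.08 (adjusted p = 0.0108). *Smad7* was -0.46 (adjusted p = 0.144), and 1 gene, *Tgif1*, named after its values were seen, was called lower than in Acute-2d and in Effector.

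*Klf13*, a regulator of chemokine expression in T cells, changed less than 2-fold. It was at 8506 and 6803 normalized counts in Effector, 12513 and 13567 in Acute-2d, 15134 and 13171 in Acute-7d, and 7968 and 8077 in T_Dysf. Rested libraries were above all others, and the T_Dysf libraries lay between those of Effector. The log2 fold change of T_Dysf was -0.82 against Acute-7d (SE 0.14, adjusted p = 0.0325) and -0.70 against Acute-2d (SE 0.14, adjusted p = 0.0394). In Effector it was -0.89 (adjusted p = 0.0233) and -0.78 (adjusted p = 0.0282) against the same conditions. Over all alternatives the adjusted p ran from 0.00730 to 0.152 and from 0.0105 to 0.169 for T_Dysf, and from 0.00416 to 0.136 and from 0.00587 to 0.161 for Effector, so each passed 0.05 under some alternatives and missed it under others. *Klf13* was called in Effector against Acute-7d with equal 75th percentiles (-1.03) and without Effector replicate 1 (-1.05).

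*Klf9*, a glucocorticoid-responsive member, was at 232 and 171.5 normalized counts in Effector, 966 and 464 in Acute-2d, 641.5 and 440.3 in Acute-7d, and 536 and 466 in T_Dysf. Effector libraries were below all others, and T_Dysf overlapped with both rested conditions. Against Acute-2d the log2 fold change of Effector was -1.74 (SE 0.41, adjusted p = 0.0527), and *Klf9* was not called in any comparison. Among genes with a mean of 50 or more it was called in Effector against Acute-2d (adjusted p = 0.00894) and Acute-7d (0.0199) and in T_Dysf against Effector (1.32, 0.0253). With a replicate block it was called in the same 3 comparisons (adjusted p = 0.0338, 0.0452 and 0.0456). It was also called in Effector against Acute-2d without Acute-2d replicate 2 (-2.27, adjusted p = 0.0462). *Klf7* was the steadiest of the expressed members, at 966 to 1367 normalized counts over all libraries, and its log2 fold changes ran from -0.31 to -0.01. *Klf12* was at 7.02 to 17.3 normalized counts (7 to 17 estimated reads), and its log2 fold changes ran from -0.95 to 0.54 (SE 0.52).

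Between the rested conditions, 0 of 10 members were called, against 0.169% of all genes called in either direction, and 0 had an unadjusted p under 0.05 in limma, against 7.31% of all genes. The largest difference was that of *Klf4*, at a log2 fold change of -1.06 in Acute-7d against Acute-2d (SE 0.74, adjusted p = 0.852). *Klf2* was at -0.32 (SE 0.18, adjusted p = 0.829) and *Klf3* at -0.44 (SE 0.25, adjusted p = 0.829), and for both genes the libraries of Acute-7d lay below those of Acute-2d. A p that misses the threshold does not show that the levels were the same.

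Related genes and genes for proteins that act with KLFs were also counted. In lists this short, 0 called cannot be told apart from the 3.03% to 4.75% of all genes called lower. Of 7 other *Klf* genes, 6 were measured, 2 averaged 50 normalized counts or more (*Klf8*, at 106 to 200, and *Klf16*, at 406 to 905), and 0 were called in any comparison. Only *Klf16* had an unadjusted p under 0.05, in Effector against Acute-7d, where it was higher (log2 fold change 0.90, SE 0.25, adjusted p = 0.0824). Of the sister *Sp* genes, which share the zinc fingers, 6 of 9 were measured and 0 were called, with 1 gene (*Sp2*) at an unadjusted p under 0.05 in T_Dysf against Acute-2d and in Effector against Acute-2d. *Sp1* was at 2550.0 to 3499 normalized counts over all libraries. Of 9 corepressors and coactivators, 1 was called in any comparison, *Crebbp*, lower in Effector than in Acute-7d (log2 fold change -1.12, SE 0.21, adjusted p = 0.0334). At an unadjusted p under 0.05 there were 5 in Effector against Acute-7d (30.4% of all genes), 6 in Effector against Acute-2d (31.2%), 2 in T_Dysf against Acute-7d (26.1%) and against Acute-2d (27.7%), and 3 in T_Dysf against Effector (31.7%). Of 4 ubiquitin ligases of KLF proteins, 0 were called. At an unadjusted p under 0.05, to be read against the same shares of all genes, there were 3 in Effector against either rested condition, 2 in T_Dysf against Acute-2d and against Effector, and 1 (*Fbxw7*, -0.86) in T_Dysf against Acute-7d.

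The nearest genes were also listed for 4 other members. Most like *Klf6* were *Mylip* (root mean square difference 0.16), *Rora* (0.17) and *Nckap5l* (0.20). Most like *Klf4* were *Nipa1* (0.67), *Otud1* (0.70) and *E430014B02Rik* (0.75), at larger distances. *Klf10* was nearest to *Dzip1* (0.14), *Gm50253* (0.15) and *Pnrc1* (0.15), and *Klf11* to *4933431K14Rik* (0.14), *Ifi213* (0.16) and *Gbp6* (0.16). *Klf6* and *Klf10* differed from each other by 0.42, and *Klf2* from *Klf6* by 1.42.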

How the data were processed

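RNA-Seq of 8 libraries was analysed from 1 deposited table, of which 0 value columns were unused. Alignment by the authors was to mm10 with STAR. In Partek Flow, the authors assigned reads to RefSeq transcripts and divided the estimated counts by the median-ratio size factors of DESeq2. The deposited values are therefore a signal, called normalized counts here. Between 58.0% and 78.0% of values under 1000.0 reads were whole multiples (within 0.05 reads) of the worth of 1 read in a library, so no read counts could be restored and no count model was fitted.

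limma (version 3.58.1, R 4.3.3; lmFit, eBayes with trend, two-sided) was fitted to log2(normalized count + 1) with 4 group means, no covariate and no filter, leaving 4 residual degrees of freedom. Fold changes are on that scale, which understates low genes. Benjamini-Hochberg adjustment was over all 24303 genes of each of 6 comparisons. The procedure was tested on simulated data. Alternatives were pseudocounts of 0.1 and 10, a mean or maximum of at least 50, equal 75th percentiles or totals, a replicate block, a term for RESUB, 2 conditions alone, an unadjusted p and leaving out each library.

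All members were named. From each list of other genes at most 4 were named, first those called in T_Dysf against Acute-7d by size, then the most abundant. *S1pr4*, *Itgb7*, *Tgif1*, *Crebbp*, *Klf16*, *Sp2* and *Fbxw7* were named after their values were seen, where they fell outside that rule. For likeness, the 3 nearest genes with a mean of at least 50 were named. The members and lists were chosen with earlier results of these data known. Levels per kb used the length of the longest GENCODE transcript linked to a RefSeq entry. Promoters came from RefSeq (GRCm38.p6), and overlapping genes from GENCODE. Protein sequences of the zinc fingers were not used here. Intervals of 3 reads cover counting error only. Tables and figures were made with pandas 2.3.3, matplotlib 3.10.9 and numpy 2.4.6 in Python 3.11.15.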

Additional observations from a re-analysis of the deposited data

How the results depend on the processing

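None of the 18 calls of a member in a comparison reversed under an alternative, and 5 held under every one run (*Klf2* in the 3 comparisons of T_Dysf, *Klf3* against Acute-7d and Acute-2d). Several alternatives could not reverse a log2 fold change, since they kept the means of the compared conditions. These were the filters of 50, the unadjusted p, the replicate block, 2 conditions alone and leaving out a library of another condition. The unadjusted p also could not end a call. With a term for RESUB, the members called fell from 4 to 2 for T_Dysf against Acute-7d, from 6 to 3 against Acute-2d, from 2 to 1 against Effector, from 3 to 0 for Effector against either rested condition, and from 7 to 2 in the F test. The Effector log2 fold changes were then larger for *Klf4* (-3.97 and -5.61) and *Klf6* (-2.40 and -2.77) and smaller for *Klf10* (-1.48 and -1.57). With 2 conditions alone the members called were 3 (T_Dysf against Acute-7d and against Acute-2d), 1 (T_Dysf against Effector) and 0 (Effector against either). With a pseudocount of 0.1 they were 3 for T_Dysf against Acute-7d, and with one of 10 they were 2 for Effector against Acute-7d. With equal 75th percentiles they were 3 for T_Dysf against Acute-7d and 4 for Effector against Acute-7d. In libraries with no RESUB prefix, chosen after seeing the data and with 1 Acute-7d library left, they were 2 and 3 for T_Dysf against Acute-7d and Acute-2d. With a mean or maximum of at least 50 or an unadjusted p, the counts were 6 for T_Dysf against Acute-7d (adding *Klf4* and *Klf10*), 3 against Effector (adding *Klf9*), 4 for Effector against Acute-7d and 5 against Acute-2d, which also had 5 with equal 75th percentiles. Leaving out 1 library gave 2 to 3 for T_Dysf against Acute-7d, 2 to 5 against Acute-2d, 0 to 3 and 0 to 4 for Effector against Acute-7d and Acute-2d, and 2 to 5 in the F test; a lone library was assumed to vary like the others. The replicate block gave 3, 5 and 3 for T_Dysf, 0 between rested conditions, 4 and 4 for Effector and 7 in the F test, where *Klf9* passed and *Klf11* did not, and same-numbered libraries correlated at -0.199 to 0.197 over 6 pairs of conditions (12028 genes), so numbers were not taken as pairs. Equal 75th percentiles moved the median gene by up to -0.15. Beyond fewer libraries or genes, causes were not tested. *Klf12*, *Klf3* in T_Dysf and *Klf4* in Effector and T_Dysf rest on few reads.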
